A study of Solanum lycopersicum with 30 samples.

Results

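Roots of the tomato (Solanum lycopersicum) mutant rmc were compared 24 h after a patch of soil had received a high amount of ammonium or water. The groups compared hold 10 Affymetrix tomato arrays of the 30 in the study, 5 of rmc high N and 5 of rmc water, chosen by their titles. The spread used to test probe sets was estimated from all 30 arrays. Of the 10038 probe sets that are not array or reporter controls, 7528 passed a filter on low signal and were tested. The rmc high N patches received 65 ppm ammonium, and the rmc water patches, the controls, received water without ammonium. A further rmc group, rmc low N, received 6.5 ppm, and in the wild type (WT) the labelled ammonium was 10 µM for WT low N and 100 µM for WT high N, beside WT water, so the labelled doses of the genotypes are in different units and what the ppm refer to is not given in the sources used here. All plants were moved into the soil of a farm field at 8 weeks of age and grown there for 5 more weeks before the patches were treated, and each array held RNA of the roots dug from a treated patch. Each group had 5 samples, which the series' design calls biological replicates; whether a sample pooled plants is not given in the sources used here, and rmc is 1 mutant line.

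The mutant rmc is known for reduced colonization by arbuscular mycorrhizal fungi, the soil fungi that deliver phosphate and some nitrogen to WT tomato roots. Root cells take up ammonium through AMT transporters, join it to glutamate through glutamine synthetase, and pass the nitrogen on to amino acids; glutamate dehydrogenase links glutamate and the organic acid 2-oxoglutarate. This assimilation draws on carbon skeletons and reducing power from sugar breakdown and from mitochondria. In whole roots a higher signal can come from more RNA per cell or from more cells of one type, and these cannot be told apart here.

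Arrays were set to a common trimmed mean by the authors, so values are relative levels within an array, in log2 units. A probe set is a group of array probes read as a single value, usually for 1 transcript. It is called when its adjusted p was under 0.05 (limma, Benjamini-Hochberg over 7528 probe sets). The fit held all 30 arrays, and their 6 groups share 1 estimate of the spread. Correlations between arrays over the probe sets ran from 0.848 to 0.977 within the groups compared and from 0.822 to 0.978 between them. Arrays of rmc water replicate 4 and rmc high N replicate 2 stood apart. The first had a mean correlation of 0.884 with its own group and 0.915 with the high N arrays, and the second 0.905 and 0.879. The pair correlated at 0.937 with each other. Other arrays also had a lower mean correlation with their own group than with the other group. They were water replicate 2 (0.915 and 0.919), water replicate 5 (0.924 and 0.938) and high N replicate 1 (0.937 and 0.948). Root identity could not be checked, since no other tissue was compared. Of 5 probe sets of 5 genes listed as root markers, 4 were tested and 0 were called. The summed log2 level of the 5 lay between 12.58 and 13.26 on the water arrays and between 12.71 and 13.32 on the high N arrays. The 8 shoot marker probe sets had a summed log2 level of 10.44 to 10.97 in water and 9.05 to 10.52 in high N. Of the 8, only PSBR was bright enough to be tested. PSBR alone read 10.32 to 10.84 in water and 8.60 to 10.43 in high N, so the sum is mostly its signal. No probe set was annotated with a mycorrhiza marker symbol, so colonization could not be read from these arrays.

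Between rmc high N and rmc water, 327 of 7528 probe sets were called (4.34%). Of these 247 rose (3.28%) and 80 fell (1.06%), and 1714 had an unadjusted p under 0.05. With only the 10 arrays compared in the fit, 4 probe sets were called. Set to the poly-A control RNAs that were added to each sample, 6429 rose and 0 fell, and with arrays weighted by quality 826 rose and 897 fell. Most changes were small. The median size of the called differences was 0.468 log2 units, against 0.177 over all probe sets tested, and 22 called probe sets passed 2-fold, 11 up and 11 down. The median of all differences was -0.01. Gene names were known for 690 of the 7528 probe sets tested and for 30 of the called ones (29 genes), 21 up and 9 down. The share called among named probe sets, 4.35%, was thus near the 4.34% of all. The groups did not overlap for 163 of the 327, where 265 of all 7528 (3.52%) had no overlap.

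The size of the response differed between high N arrays. On the high N arrays, in the order of their replicate numbers, the 247 rises had a median of 0.186, 0.576, 0.313, 0.447 and 0.674 above the water mean. The 80 falls had a median of -0.252, -0.806, -0.335, -0.583 and -0.720 on the same arrays. Arrays 2, 4 and 5 thus stood farthest from water and array 1 nearest, and the called probe sets were chosen on these very arrays. The water arrays lay between -0.100 and 0.077 for the rises and between -0.128 and 0.080 for the falls, and water replicate 4 had the largest shift toward the high N side in both.

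The number of calls moved with single arrays. It was 158, 227, 157, 704 and 189 without water replicates 1 to 5, and 1028, 100, 541, 164 and 52 without high N replicates 1 to 5. A core of 51 probe sets (0.677%) was called in each of the 10 fits that left out 1 of these arrays, 45 up and 6 down. It held 9 probe sets of 8 named genes, gts1 with both of its probe sets, AMT1-2, PT1, MDHAR, UCP, gdh1, LOC543639 and WRKY2. Without both arrays that stood apart 94 probe sets were called, 74 up and 20 down, and 92 of them were among the 327. When the fit held only these 2 groups, 4 were called, of which 3 were among the 327, namely both probe sets of gts1 and the largest unnamed rise.

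**Figure D1:**
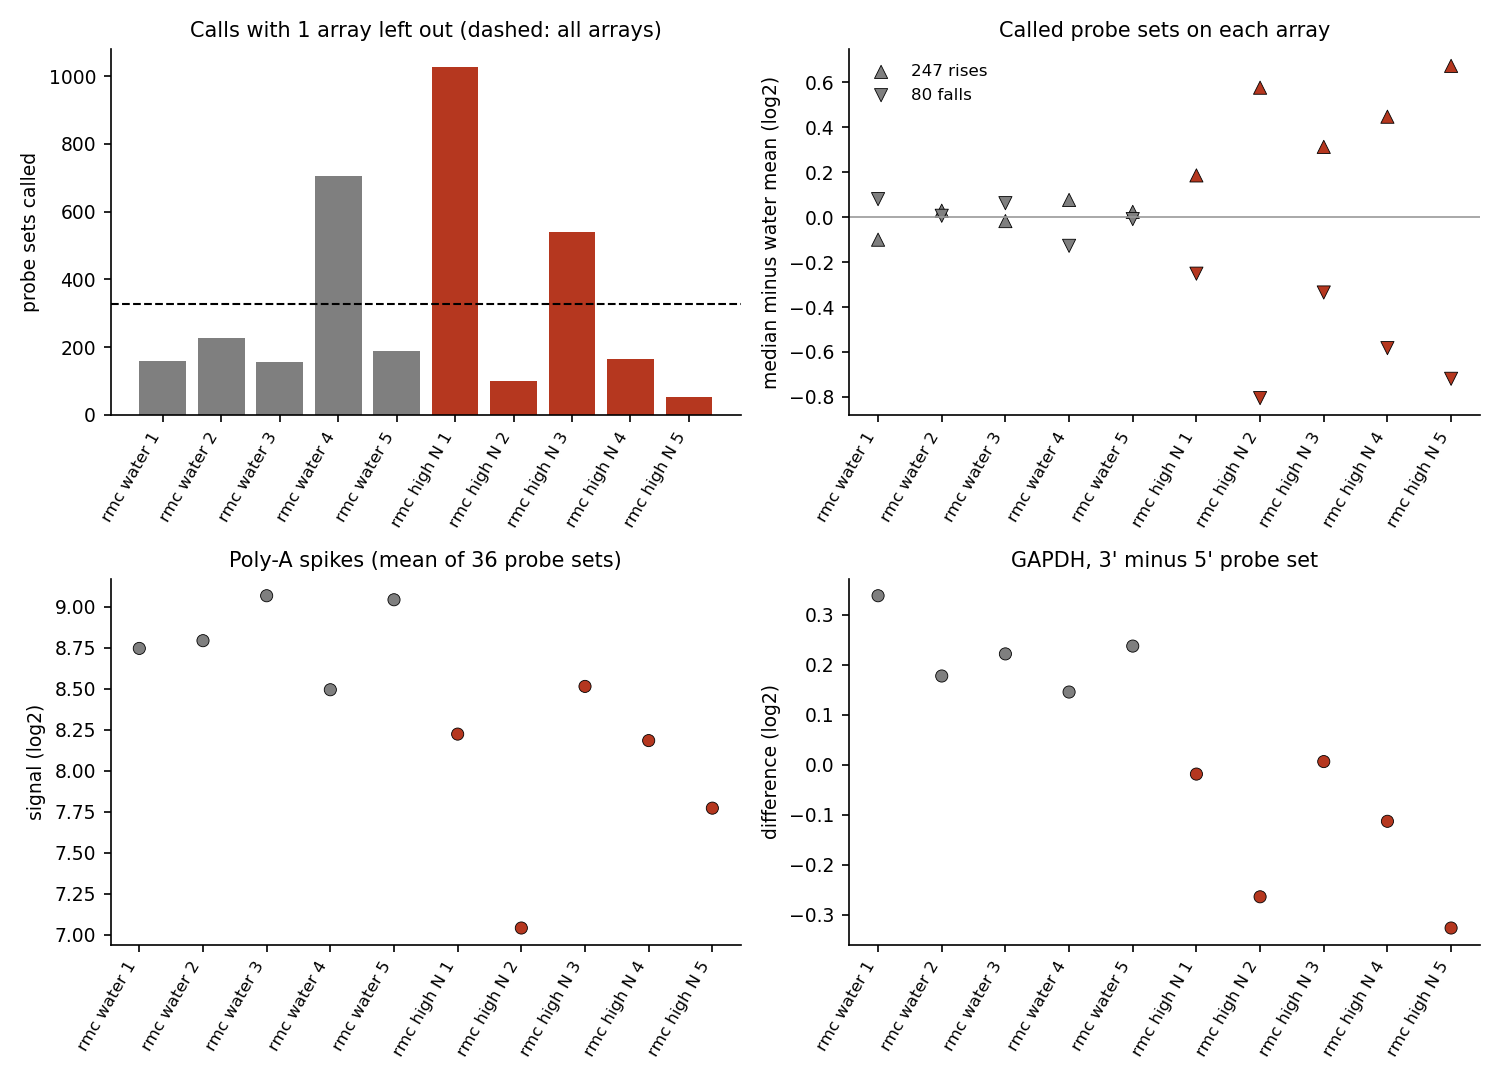
Upper left, bars give the number of probe sets called for high N against water in rmc when the array named on the x axis was left out, with the count over all arrays, 327, as a dashed line. Upper right, triangles give the median of the 247 rises and of the 80 falls on each array, in log2 units from the water mean. Lower panels give for each array the mean poly-A spike signal and the 3' minus the 5' signal of GAPDH, both in log2 units. High N arrays 2 and 5, with the lowest poly-A signals (7.04 and 7.77), had the largest medians of the rises (0.576 and 0.674).

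The control probe sets also moved with the treatment. Poly-A spikes are RNAs added before amplification, and their mean signal over 36 probe sets was 8.74, 8.79, 9.07, 8.49 and 9.04 on the water arrays and 8.22, 7.04, 8.51, 8.18 and 7.77 on the high N arrays. High N read lower by a mean of 0.882, with 1 array in the range of water (8.83 ± 0.24 against 7.95 ± 0.57, SD, n = 5 each; two-sided exact permutation p = 0.0159, adjusted over 4 control measures p = 0.0317). The 3' signal of GAPDH minus its 5' signal, a reading of how complete the RNA copies are, was 0.224 ± 0.073 in water and -0.144 ± 0.147 in high N, without overlap (exact permutation p = 0.00794, the smallest this design allows; adjusted p = 0.0317). That of actin was 0.168 ± 0.066 and 0.185 ± 0.056 (exact permutation p = 0.651), and the spikes added at hybridization read 9.88 ± 0.10 and 9.85 ± 0.10 (exact permutation p = 0.643). Setting every array to its poly-A spikes moves the median of all differences up by 0.882 log2 units. All directions given here are relative to the common trimmed mean, and what the control readings contribute to the calls was not tested.

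The nitrogen genes gts1 and AMT1-2 had the largest called rises among the genes with a name. The list of uptake and assimilation genes has 5 probe sets of 4 genes. Of these, 4 rose, 0 fell and 1 did not pass, where 3.28% of all probe sets tested rose. The list's median difference was 1.35, where the median over all probe sets was -0.01. The glutamine synthetase gene gts1 read 9.13, 8.62, 9.62, 8.03 and 8.70 on the water arrays and 11.17, 11.86, 11.23, 11.73 and 12.16 on the high N arrays. The lowest high N array was thus above the highest water array by more than the whole spread of the high N group. The rise was 7.02-fold (log2 difference 2.81, SE 0.32, limma adjusted p = 7.33e-06, on 5 of 5 arrays), and it ranged from 2.61 to 3.01 when single arrays were left out. A second, dimmer gts1 probe set ran between 5.01 and 5.80 in water and between 7.36 and 8.45 in high N (difference 2.50, SE 0.32, limma adjusted p = 6.02e-05).

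AMT1-2 encodes an ammonium transporter of the plasma membrane. Its signal was 9.84, 8.58, 9.32, 9.11 and 8.64 in water and 10.45, 10.85, 10.04, 10.18 and 10.72 in high N. The groups did not overlap, although water replicate 1 lay close below the lowest high N array. AMT1-2 rose 2.55-fold (log2 difference 1.35, SE 0.25, limma adjusted p = 0.00343), with 1.22 to 1.54 when single arrays were left out.

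The glutamate dehydrogenase gene gdh1 was bright in both groups. It read 11.09, 11.26, 11.39, 10.38 and 11.18 in water and 11.76, 11.83, 11.63, 11.83 and 11.94 in high N. The groups did not overlap, and water replicate 4, one of the arrays that stood apart, was the lowest of all. The rise was 1.67-fold (0.74, SE 0.12, limma adjusted p = 0.00123), and without water replicate 4 the difference was 0.57 (limma adjusted p = 9.68e-05). GS2, a second glutamine synthetase gene, whose product is known from plastids, read 8.20, 6.45, 7.21, 8.43 and 8.55 in water and 7.72, 9.58, 7.73, 7.34 and 8.80 in high N. The groups overlapped over most of their range, and the difference of 0.47 (SE 0.49) did not pass (limma adjusted p = 0.591).

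**Figure D2:**
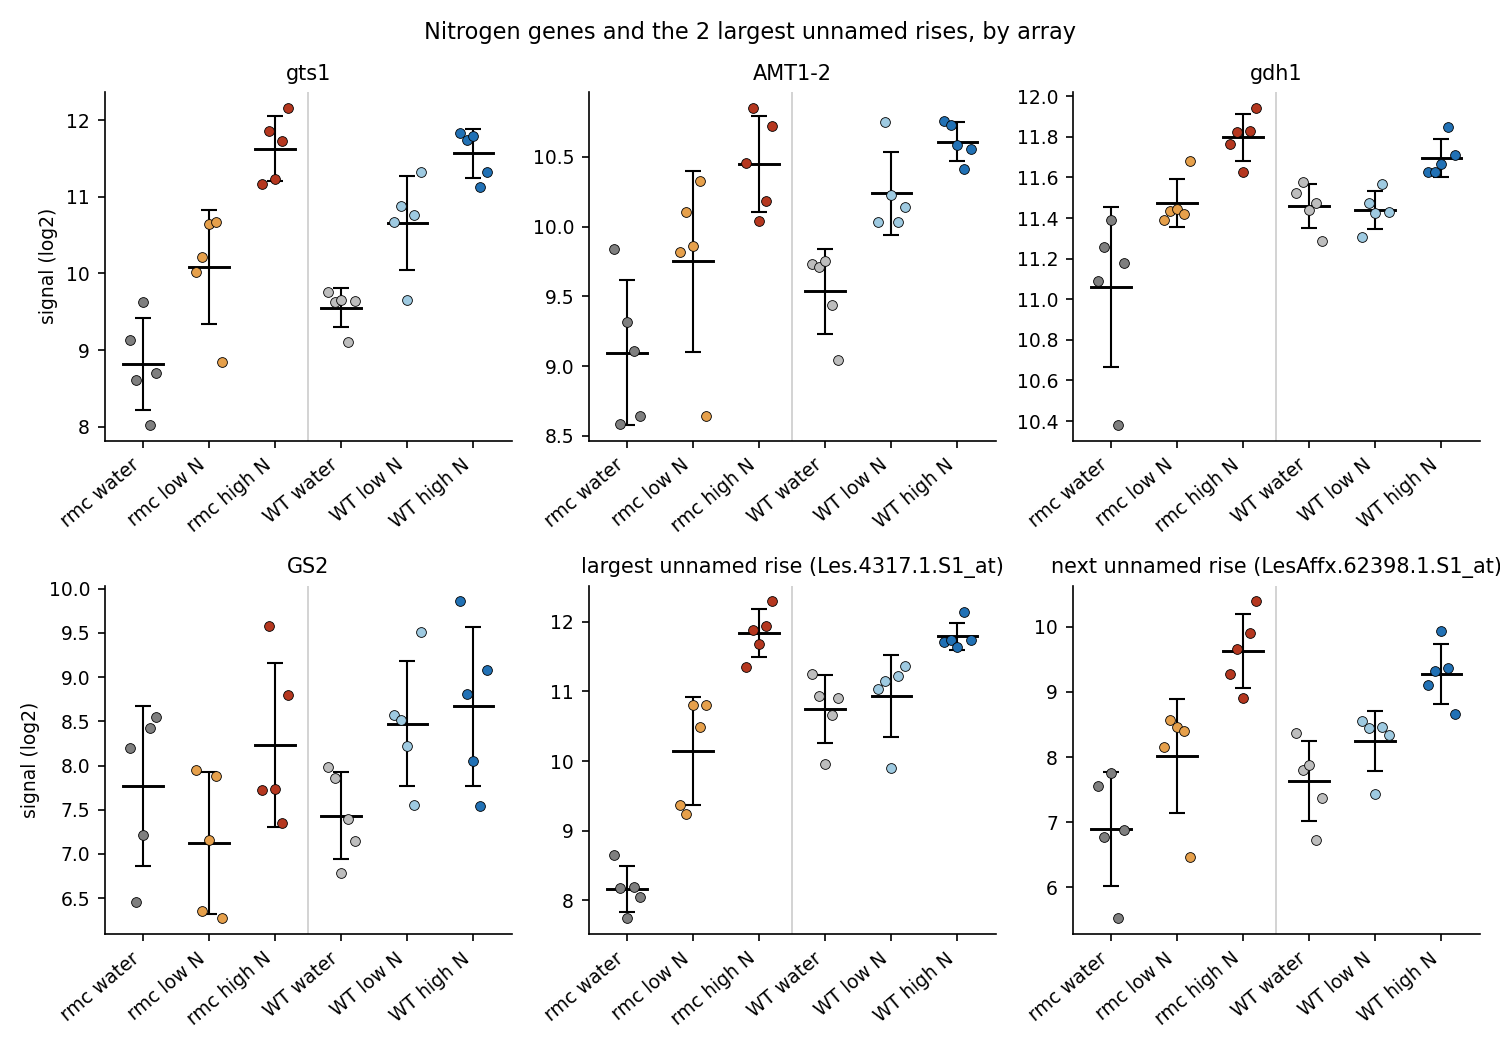
Each point is the log2 signal of 1 array, and lines give the group mean with its SD (n = 5), for gts1, AMT1-2, gdh1, GS2 and the 2 largest unnamed rises in the 3 rmc groups (left of the grey line) and the 3 WT groups (right). Panel titles give the identifiers of the unnamed probe sets, and the y axes differ between panels. In rmc, all high N points of gts1, AMT1-2, gdh1 and the 2 unnamed probe sets lie above the water points, and those of GS2 do not.

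Among 14 probe sets of amino acid transport and metabolism, 10 were tested and 0 were called, where 4.34% of all tested were called. The median difference was 0.01. Those with an unadjusted p under 0.05 were CGS, for cystathionine gamma-synthase of methionine synthesis (0.33, limma adjusted p = 0.0853), and LAPA2, a leucine aminopeptidase gene (0.15, adjusted p = 0.157). The amino acid permease genes AAP1, AAP2 and AAP3 differed by -0.53, -0.09 and 0.04.

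The largest change of all was that of a probe set without a gene name, which read 8.65, 8.18, 7.74, 8.19 and 8.05 in water and 11.36, 11.89, 11.69, 11.94 and 12.29 in high N. The gap between the groups exceeded the range of either. This was a 12.7-fold rise (log2 difference 3.67, SE 0.30, limma adjusted p = 1.27e-08), and the difference stayed between 3.56 and 3.79 when single arrays were left out. The next unnamed rise read 7.56, 6.77, 7.75, 5.52 and 6.88 in water and 9.28, 9.66, 8.91, 9.91 and 10.39 in high N (2.74, SE 0.40, adjusted p = 0.000573). Water replicate 4 was again the lowest array, and the groups did not overlap. The largest falls without a name were -1.29 (SE 0.33, limma adjusted p = 0.0267) and -1.26 (SE 0.36, adjusted p = 0.0419). In both, high N replicate 2 was the lowest array, at 5.16 against 6.42 to 7.18 for the first and at 6.58 against 8.53 to 9.56 for the second. Without that array the differences were -0.96 (adjusted p = 0.104) and -0.75 (adjusted p = 0.116).

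The probe sets whose pattern was most like that of gts1 were ranked by Pearson correlation over the 15 rmc arrays, as a description. First came the dimmer gts1 probe set (r = 0.990) and then the second unnamed rise (r = 0.978). Places 3 to 5 went to other probe sets without a gene name (r = 0.937, 0.912 and 0.905), with much smaller rises of 0.35, 0.48 and 0.38. Over the 15 WT arrays, which did not enter the ranking, the correlations were 0.977, 0.890, 0.764, 0.698 and 0.420 in that order. The arrays share the treatment groups and the scaling, so the coefficients describe groups as much as single samples.

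The phosphate list held 4 probe sets. Of these, 1 rose, 0 fell and 3 did not pass, where 3.28% of all probe sets tested rose. The list's median difference was 0.49. PT1, a high-affinity phosphate transporter gene, read 10.98, 10.24, 10.24, 9.69 and 9.67 in water and 10.93, 10.97, 10.96, 11.20 and 11.33 in high N. Water replicate 1 lay inside the high N range, and the other water arrays lay below it. PT1 rose 1.89-fold (0.92, SE 0.17, limma adjusted p = 0.00346) and was called whichever array was left out (0.79 to 1.12). The related transporter gene PT2 read 11.15, 10.13, 10.81, 8.36 and 9.90 in water and 11.02, 9.98, 10.73, 11.03 and 10.83 in high N, with overlap, and its difference of 0.65 did not pass (SE 0.37, limma adjusted p = 0.294). Without water replicate 4, the lowest array, it was 0.22. Neither TPSI1, a transcript known to accumulate in phosphate starvation (-0.13, adjusted p = 0.760), nor the acid phosphatase gene APS1 (0.34, adjusted p = 0.343) passed.

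Among genes of carbon use and mitochondria, ST3, hxk1, mMDH1 and UCP rose. ST3, a gene of the sugar transporter family, read 8.42, 8.14, 7.60, 7.69 and 7.74 in water and 8.36, 8.76, 8.92, 9.07 and 9.55 in high N, with 1 water array above the lowest high N array. It rose 2.02-fold (1.01, SE 0.27, limma adjusted p = 0.0345). That call was lost without water replicate 3 or 5 or high N replicate 2, 4 or 5, with differences of 0.86 to 1.06 and adjusted p of 0.0684 to 0.152. Of 25 tested probe sets for sugar, starch and organic acid enzymes, 2 rose and 0 fell, with a median of 0.06, where 3.28% of all probe sets tested rose. The hexokinase gene hxk1, whose product makes the first step of glucose use, rose 1.48-fold from 9.19 ± 0.31 to 9.75 ± 0.32 (SD, n = 5, limma adjusted p = 0.0336). The mitochondrial malate dehydrogenase gene mMDH1 rose 1.37-fold from 11.15 ± 0.10 to 11.60 ± 0.25 (limma adjusted p = 0.0113), and its other probe set differed by 0.38 (adjusted p = 0.0832). The call of mMDH1 was lost without high N replicate 5 (adjusted p = 0.0645) and that of hxk1 without 6 of the 10 arrays (water 1, 2 and 3, high N 2, 4 and 5).

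Of 5 tested probe sets for mitochondrial energy and proton pumps 1 rose, where 3.28% of all tested rose, and the list's median was -0.03. It was UCP, for the mitochondrial uncoupling protein, with 8.20, 8.70, 8.66, 8.82 and 8.73 in water and 9.09, 9.58, 9.01, 9.61 and 9.86 in high N. The groups did not overlap (1.75-fold, 0.81, SE 0.15, limma adjusted p = 0.00318). The alternative oxidase gene AOX1a differed by -0.16, and the plasma membrane proton pump genes LHA1 and LHA2 by -0.03 and -0.12. Outside the lists and the rule for named genes, and chosen after their values were seen, SCOA, for a subunit of succinyl-CoA ligase in the citric acid cycle, rose by 0.47 (SE 0.12, limma adjusted p = 0.0208), and TIM10, for a protein of mitochondrial import, by 0.30 (SE 0.08, adjusted p = 0.0356). Without high N replicate 5 their adjusted p were 0.102 and 0.156.

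In the antioxidant list 1 of 21 tested probe sets rose and 0 fell, against 3.28% and 1.06% of all tested. The list's median was 0.04. The one that rose was MDHAR, for the monodehydroascorbate reductase that recycles ascorbate, with 8.03, 7.49, 7.96, 8.45 and 7.84 in water and 8.56, 9.07, 8.63, 8.59 and 9.15 in high N. The groups lay apart by little, since water replicate 4 came close to the high N arrays (1.80-fold, 0.85, SE 0.16, limma adjusted p = 0.00346). Enzymes next to it in the ascorbate cycle did not pass, among them DHAR2 (0.10) and both probe sets of APX2 (0.01 and 0.08). The peroxidase gene CEVI-1 had the largest difference of the list, 1.43 (limma adjusted p = 0.0618). Also chosen after their values were seen, ctu1, with the synonym GSTU43 of a glutathione transferase, rose by 0.40 (limma adjusted p = 0.0405), and the glyoxalase gene GLX1 rose by 0.28 (adjusted p = 0.0388).

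The remaining named rises carry no role here because the annotation used gives only a locus number or a short symbol. LOC778326 rose by 0.57 (SE 0.13, limma adjusted p = 0.0150) and LOC543639 by 0.49 (SE 0.08, adjusted p = 0.00142). LOC543639 had water values between 9.90 and 10.00 and high N values between 10.15 and 10.68, without overlap. GPI1 (0.52, limma adjusted p = 0.0480) and LOC543977 (0.50, adjusted p = 0.0301) were called too, as were LOC543548 (0.45), LOC544237 (0.41) and LOC543863 (0.30), which lie outside the rule. Of these 7 genes, only LOC543639 was called whichever array was left out, and LOC778326 was lost without water replicate 1 (adjusted p = 0.0543) or high N replicate 5 (0.0757).

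Falls with a gene name were 9, each below the water mean on 5 of 5 high N arrays, the arrays on which they were called. PSBR, for a photosystem II protein, read 10.32, 10.84, 10.70, 10.57 and 10.65 in water and 10.37, 8.60, 10.43, 9.80 and 8.92 in high N. High N arrays 2 and 5 were far below the others, and arrays 1 and 3 reached the lowest water value. PSBR fell by 1.00 on the log2 scale (SE 0.29, limma adjusted p = 0.0455); without high N replicate 2 the difference was -0.74 (adjusted p = 0.170) and without replicate 5 it was -0.82 (adjusted p = 0.195). The other 7 shoot markers were too dim to be tested, with mean differences between -0.89 and 0.63. ZEP, for the zeaxanthin epoxidase of carotenoid and abscisic acid synthesis, fell from 9.06 ± 0.36 to 8.32 ± 0.47 (-0.73, SE 0.21, limma adjusted p = 0.0439), and without high N replicate 2 the difference was -0.53 (adjusted p = 0.166). In its list of 17 tested carotenoid and isoprenoid probe sets, 0 rose and 1 fell, with a median of -0.21. Over all probe sets tested, 1.06% fell. CCD1B, for a carotenoid cleavage enzyme, differed by -0.46 (limma adjusted p = 0.0660).

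The transcription factor gene WRKY2 read 10.28, 10.14, 10.11, 10.10 and 10.02 in water and 9.91, 9.44, 9.81, 9.41 and 9.39 in high N, without overlap. WRKY2 fell by 0.54 (SE 0.11, limma adjusted p = 0.00833) and was the one named fall called whichever array was left out. WRKYIId, also of the WRKY family, fell by 0.41 (SE 0.10, limma adjusted p = 0.0187), a call lost without water replicate 1 or high N replicate 2 or 5. Together they made 2 falls and 0 rises among 21 tested probe sets for transcription factors, where 1.06% of all tested fell. The list's median was -0.14. EIL2, a member of the EIN3-like factors that act at the end of ethylene signalling, fell by 0.30 (SE 0.08, limma adjusted p = 0.0345), with water arrays between 11.65 and 11.84 and high N arrays between 11.15 and 11.55.

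EIL2 was the single call among 28 tested ethylene probe sets, whose median was -0.07, where 4.34% of all tested were called. The other EIN3-like genes EIL1 and EIL3 differed by -0.24 and -0.25 without passing (limma adjusted p = 0.136 and 0.431). The 3 probe sets of ACO6, for the ACC oxidase that makes ethylene, differed by -1.09, -0.99 and -0.73 (limma adjusted p = 0.234, 0.246 and 0.256). In the other direction, EREB differed by 1.59 and the receptor genes ETR4 and ETR6 by 1.41 and 1.33 (limma adjusted p = 0.172, 0.118 and 0.209). These differences are larger than that of EIL2, and their spread between arrays was larger too. Without high N replicate 5 the adjusted p of EIL2 was 0.0950, and without replicate 2 it was 0.134.

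Translation had 0 rises and 2 falls among 11 tested probe sets, with a median of -0.03, against 3.28% rises and 1.06% falls over all tested. The initiation factor gene eIF-5A1 fell from 11.80 ± 0.18 to 11.19 ± 0.45 (-0.61, SE 0.18, limma adjusted p = 0.0499) and eIF-5A4 by 0.16 (SE 0.04, adjusted p = 0.0287). One of the probe sets of RPS25, for a ribosomal protein, differed by 0.27 in the other direction (adjusted p = 0.0604). The last named falls were LOC543810, with the synonym RCE1 (-0.36, limma adjusted p = 0.0303), and RAB1B, for a small GTPase of vesicle transport (-0.20, adjusted p = 0.0254). Of the 9 named falls, 8 were not called without high N replicate 2 and not called without replicate 5, the exception being WRKY2. Set to the poly-A spikes, every named fall but that of PSBR became positive.

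The other lists had 0 called probe sets. These were defence and jasmonate (17 tested, median 0.11), cell wall (29, 0.03), root tip and dividing cells (14, 0.14), other hormones (11, -0.16), iron and other metals (11, -0.13), heat shock (4, -0.10) and aquaporins (3, 0.45). Their widest single differences were between -1.22, for PR-5 of the defence list, and 1.03, for GA3ox1 of gibberellin synthesis, and neither passed (limma adjusted p = 0.492 and 0.193). Senescence markers had 0 calls among 8 tested probe sets, with a median of -0.15. Over all probe sets tested, in these lists and outside them, 4.34% were called.

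**Figure D3:**
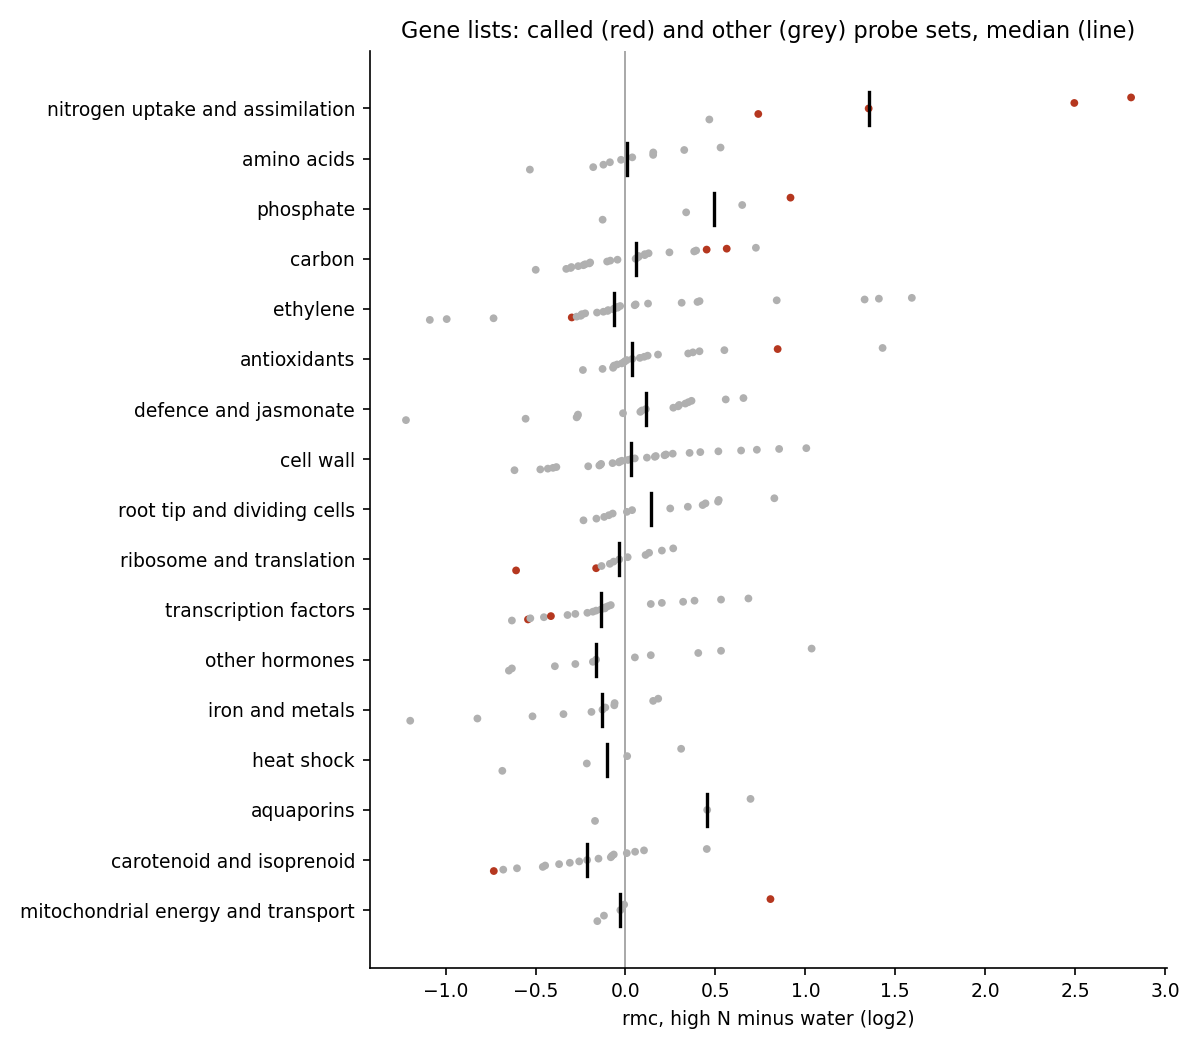
Points are the log2 differences of the tested probe sets of 17 gene lists, high N minus water in rmc, red where called and grey where not, and a black line marks each list's median. The nitrogen list, with a median of 1.35 and 4 of 5 probe sets called, lies to the right of the others. Of all probe sets tested, 4.34% were called.

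The same ammonium comparison in WT used other arrays, so it could be set beside the rmc calls, although all 30 arrays share 1 estimate of the spread and the labelled doses differ. In WT 1374 of 7528 probe sets were called (18.3%), and groups did not overlap for 1329 (17.7%). Of the 327 rmc calls, 251 (76.8%) were also called in WT, all in the same direction, which is 18.3% of the WT calls. All 327 had the same sign in WT, as had 81.5% of all probe sets tested, and 67.3% had no overlap between WT groups. Of the 51 probe sets called whichever array was left out, 48 were called in WT. Across the 7528 probe sets the differences in rmc and WT correlated at r = 0.738, as a description over probe sets that share arrays.

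On single WT high N arrays the 247 rises had medians of 0.399, 0.352, 0.359, 0.433 and 0.456 above the WT water mean. The 80 falls had medians of -0.391, -0.400, -0.334, -0.563 and -0.577 on them. The WT arrays, which did not choose these probe sets, were thus closer to each other than the rmc high N arrays were, where the medians of the rises ran from 0.186 to 0.674. Over the 247 rises the median difference was 0.451 in rmc and 0.397 in WT, and over the 80 falls it was -0.576 and -0.473. The probe sets were chosen by their rmc differences, so the rmc medians can be too large beside those of WT.

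The 30 called probe sets with a gene name had the same sign in both genotypes. LOC543639 differed by 0.49 in rmc and 0.51 in WT, mMDH1 by 0.45 and 0.48, UCP by 0.81 and 0.73, and eIF-5A1 by -0.61 and -0.61. The differences of gts1 were 2.81 and 2.01, those of AMT1-2 1.35 and 1.07 and those of ST3 1.01 and 0.48. Others were larger in WT, among them MDHAR (0.85 and 1.05), LOC778326 (0.57 and 0.85) and SCOA (0.47 and 0.66). For gts1, AMT1-2, ST3, MDHAR, LOC778326 and SCOA the test of the difference between genotypes did not pass (limma adjusted p = 0.999 each). The differences of gdh1 were 0.74 in rmc and 0.24 in WT, where it was not called (limma adjusted p = 0.141), and those of GS2, called in neither, were 0.47 and 1.23. The test of the difference itself gave 0.50 for gdh1 (SE 0.16, adjusted p = 0.999), and the rmc value falls to 0.57 without water replicate 4.

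One probe set of 7528 (0.0133%) passed the test of the difference between the genotypes, and 96 had an unadjusted p under 0.05. It was the largest unnamed rise, at 3.67 in rmc and 1.05 in WT (difference 2.63, SE 0.42, limma adjusted p = 0.00918). Its levels in high N were alike, 11.83 ± 0.35 in rmc and 11.79 ± 0.20 in WT. The water levels were not, with 8.65, 8.18, 7.74, 8.19 and 8.05 in rmc and 11.26, 10.93, 9.96, 10.66 and 10.91 in WT, without overlap; that contrast was not part of the tests. The labelled doses differ between the genotypes, so genotype and dose cannot be told apart in this difference. Without both arrays that stood apart the difference was 2.62 (SE 0.46) and narrowly missed the threshold (limma adjusted p = 0.0546).

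**Figure D4:**
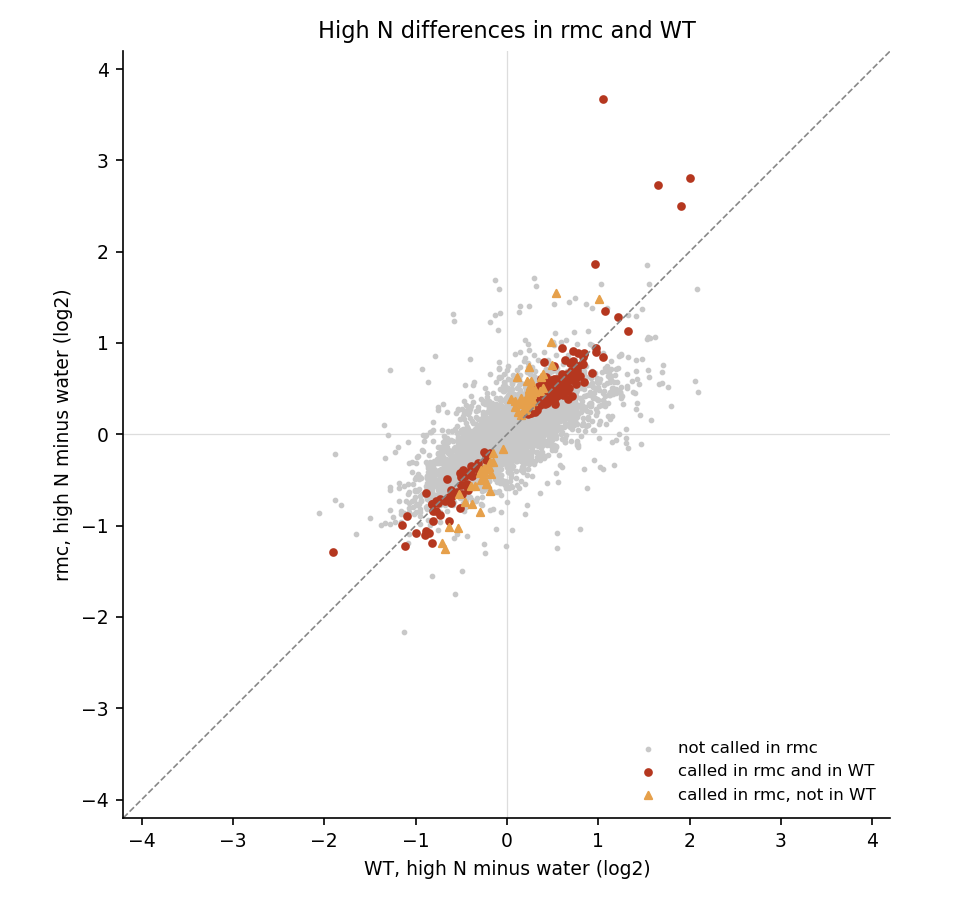
Each point is 1 of 7528 probe sets, with its log2 difference between high N and water in WT on the x axis and in rmc on the y axis, red circles where called in both, orange triangles where called in rmc but not in WT, and grey elsewhere, and the dashed line marks equal differences. The 327 rmc calls all lie in the quadrants of equal sign, and the largest unnamed rise (3.67 in rmc, 1.05 in WT) stands farthest above the line.

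The rmc low N group shares the water arrays with the comparison above, so its values are given side by side only. One probe set was called for low N against water (0.0133%), the largest unnamed rise, with 9.36, 9.24, 10.80, 10.49 and 10.80 on the low N arrays and a difference of 1.98 (limma adjusted p = 0.00320); 342 had an unadjusted p under 0.05. The low N signals of gts1 were 10.02, 10.22, 10.65, 10.67 and 8.85, with a mean of 10.08 between the water mean of 8.82 and the high N mean of 11.63. AMT1-2 read 9.82, 10.10, 9.86, 10.32 and 8.64 at low N, with a mean of 9.75 between 9.10 and 10.45. In both genes low N replicate 5 was inside the water range and apart from the other low N arrays. For AMT1-2, low N replicate 1 was also inside the water range, whose highest array read 9.84, and replicate 3 lay close above it. The low N means of gdh1 (11.47), PT1 (10.59), MDHAR (8.33) and UCP (9.02) were also between those of water and high N, while hxk1 (0.02), GPI1 (0.04), SCOA (0.04) and PSBR (-0.03) differed little from water at low N.

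High N against low N in rmc, which shares the high N arrays, had 53 calls (0.704%). They included gts1 (1.55, limma adjusted p = 0.0310), its dimmer probe set (1.42, adjusted p = 0.0321), the largest unnamed rise (1.69, adjusted p = 0.0310), LOC543639 (0.33, adjusted p = 0.0413) and GLX1 (0.32, adjusted p = 0.0451). AMT1-2 (0.70, adjusted p = 0.115) and gdh1 (0.32, adjusted p = 0.115) did not pass. This count was 0 without high N replicate 2, 4 or 5 or low N replicate 1, was 1 without low N replicate 5 and 19 and 27 without low N replicates 3 and 2, and rose to 1051 and 211 without high N replicates 1 and 3 and to 421 without low N replicate 4.

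**Figure D5:**
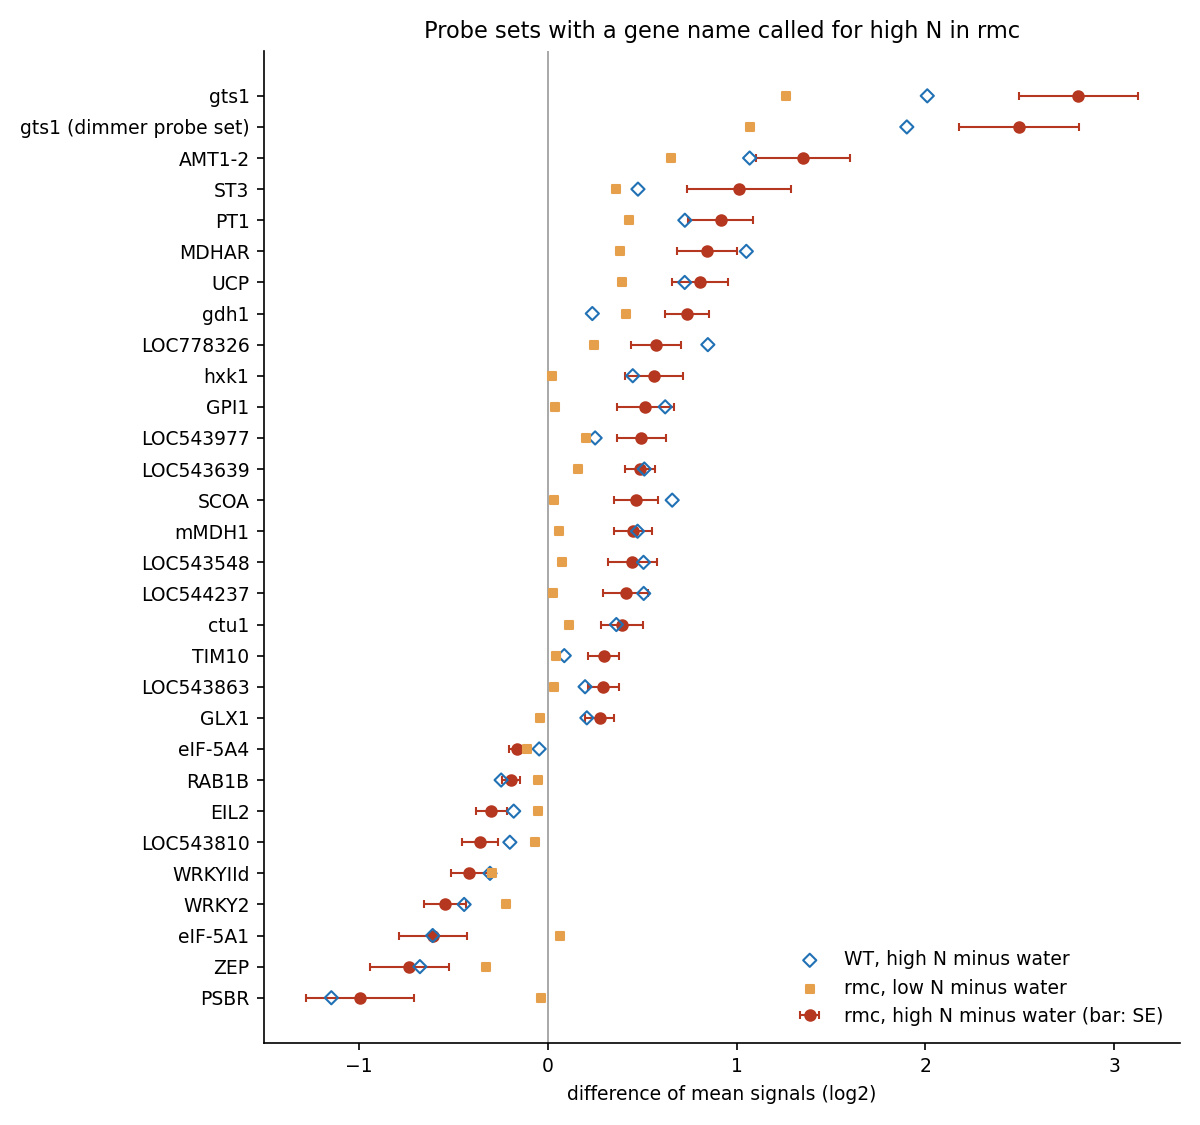
For the 30 called probe sets with a gene name, red circles give the log2 difference between high N and water in rmc with its SE, open blue diamonds the same difference in WT, and orange squares the difference between low N and water in rmc. All 30 lie on the same side of 0 in rmc and WT, from gts1 (2.81 and 2.01) to PSBR, which fell by 1.00 in rmc and by 1.15 in WT, and the low N values lie nearer 0 than the high N values of rmc.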

How the data were processed

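Per the file headers and the submitters' processing notes, which name MAS5 and Affymetrix Expression Console without versions, the deposited values are MAS5 signals on a log2 scale, computed by the authors. In linear form their 2% trimmed mean was 500.04 to 500.05 on the 30 arrays, so each array had been scaled to a common mean. A change common to all transcripts therefore cannot be seen. Per the labels' protocols, 200 ng of column-purified RNA was amplified per array. Between 2.12% and 2.90% of values per array stood at 0 on the 10 arrays compared. No detection call, scan date or batch was used here.

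From 10209 probe sets, the 108 AFFX and 63 reporter controls were removed, then the lowest 25% by mean over all arrays (under 5.612), which left 7528. Platform annotation, which can be old, gave 1 symbol for 909 probe sets, of which 885 matched RefSeq; 690 of those tested (641 genes) are named. limma 3.58.1 in R 4.3.3 (lmFit and eBayes with an intensity trend) was fitted to 6 group means over 30 arrays. Each p is two-sided and adjusted by Benjamini-Hochberg over the 7528. For control measures the exact permutation test (two-sided) was used. A probe set has only a bound where every array of a group reads at or under the highest of 23 negative controls (3.365), which held for 0 called ones. Named are the 12 largest rises and 12 largest falls with a symbol, all nitrogen and phosphate probe sets, up to 4 called members of each other list, 2 unnamed probe sets per direction and the 5 most like gts1; genes outside this are marked. The comparison, lists and named genes were chosen with earlier results of these data known. Simulated data had 200 changed of 7528 probe sets. The fit for rmc high N against water recovered 49.0% at a log2 change of 0.5, 83.6% at 1 and 95.8% at 2, with a mean of 5.8 false calls per run. Each probe set's deviations from its group means were shuffled over all 30 arrays separately. Shifts shared by a whole array and differences in spread between groups were thus absent, so these shares may not hold for the rmc arrays. The 30 arrays limit the precision. Other settings tried were array scaling, filters, weights, a replicate block, a pseudocount of 16 and leaving out arrays. Python 3.11.15, pandas 2.3.3 and matplotlib 3.10.9 served for tables and figures.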

Additional observations from a re-analysis of the deposited data

Results flagged for a closer look

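In 3 cases a single array stood far from the rest of its group for a named gene, among 84 groups of 5 examined, where chance gives about 1 in 20. UCP read 8.20 in rmc water replicate 1 and 8.66 to 8.82 on the other water arrays. LOC778326 read 11.77 in rmc high N replicate 5 and 11.28 to 11.39 on the other high N arrays. PT2 read 9.98 in rmc high N replicate 2 and 10.73 to 11.03 on the others. The response of the largest unnamed rise differed between the genotypes, by 2.63 log2 units (3.67 in rmc against 1.05 in WT, limma adjusted p = 0.00918), with labelled doses that differ between them.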

How the results depend on the processing

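The count of 327 calls was 206 with median centring, 6429 with poly-A spike scaling (all of them up), 4 with only the groups compared, 1723 with array weights, 130 with scaling to the hybridization spikes and 94 without both arrays that stood apart; the last 2 settings were added after the data were seen. It ran from 52 to 1028 when single arrays were left out. Quantile normalization gave 318, no filter 252 and the pseudocount 318. Whether replicate numbers pair the samples was not settled. Deviations of same-numbered rmc water and high N arrays correlated at -0.615 to 0.653, and for replicates 1 and 3 the same number gave the best partner. With the replicate block 613 were called, including all 327. The share of rises among the calls was 76.7% with median centring and 47.9% with array weights, against 75.5%. For WT high N against water, poly-A spike scaling gave 9, array weights 2757, hybridization spike scaling 801, and single arrays left out 467 to 1681. The 1 call of the genotype difference was 0 without both arrays that stood apart. The 1 call of rmc low N was 0 with only the groups compared and 1 to 2 with single arrays left out. The 53 calls of high N against low N were 104 with median centring, 3126 with poly-A spike scaling, 34 with no filter, 82 with the lowest 50% left out, 0 with only the groups compared, 936 with array weights, 213 with the replicate block, 3 with hybridization spike scaling, 0 without both arrays and 0 to 1051 with single arrays left out. With poly-A spike scaling, which adds 0.882 to every difference, falls turned positive for ZEP (0.15), eIF-5A1 (0.27), WRKY2 (0.34), WRKYIId (0.47), LOC543810 (0.52), EIL2 (0.58), RAB1B (0.69) and eIF-5A4 (0.72), as did the uncalled difference of TPSI1 (0.75). With single arrays left out, the difference of the hybridization spikes ran from -0.060 to 0.00906 and that of actin from -0.00179 to 0.041, each around 0. Leaving out both arrays kept the call of 14 of 34 called named or unnamed probe sets, median centring of 18, and array weights of 33. Signals near background and the small number of arrays limit what can be seen; the causes of these shifts were not tested.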
